A study of Mus musculus with 8 samples.

Results

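Rgs1 and 9 genes of T cells and intraepithelial lymphocytes (IELs) were followed in RNA-Seq of the mouse distal colon, to ask whether the lower level of Rgs1 in Siglec-XII mice was shared by other lymphocyte genes. The 10 genes are Rgs1, the CD3 chains Cd3e, Cd3g and Cd3d, the coreceptors Cd8a, Cd8b1 and Cd4, the integrin chain Itgae, and the granzymes Gzma and Gzmb, out of 51425 gene symbols measured. Rgs1 was chosen because its values differed between the groups, and the other 9 were chosen as T cell genes with earlier results of the same data known, so the differences of all 10 are given as a description without a test.

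The study placed human SIGLEC12, which mice lack, under the control of Cre recombinase to ask what Siglec-XII does in the intestinal epithelium. The Siglec-XII group was SIGLEC12-Villin1-Cre-ERT mice, in which a floxed SIGLEC12 cassette at the ROSA26 locus is opened by Cre, and the control group was littermates with Villin1-Cre-ERT only. Villin1 drives Cre in the epithelium of the small and large intestine, and not in lymphocytes. Mice of both groups were female, were 8 weeks old at the first injection, received tamoxifen (10 mg/ml) on 5 days, and were sampled 7 days after the last injection, before any carcinogen. The labels list 4 samples in each group, numbered within the group, while the design text speaks of 3 mice per condition, and nothing in the labels ties each sample to a separate mouse. P values therefore measure the spread between these samples, which may be technical. The transgene was not analysed here, so it does not check the labels.

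T cells recognize antigen through a receptor whose signal is carried into the cell by the CD3 chains. CD8 and CD4 are the coreceptors of the classes of T cell that read major histocompatibility complex class I and class II. IELs are T cells lodged between the epithelial cells of the gut, where the integrin CD103, whose alpha chain is encoded by Itgae, binds E-cadherin on the epithelium, and many of them carry granzymes, the proteases of cytotoxic granules. Rgs1 encodes a regulator of G protein signaling that speeds the shutdown of Gi proteins and so damps the response of lymphocytes to chemokines. It is known as a transcript of T cells resident in tissues such as the gut, and of activated B cells and other leukocytes.

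Values are log2(TPM + 1) as deposited, where TPM counts the transcripts of a gene, corrected for their length, relative to a total that is the same in each sample, and differences are Siglec-XII minus control on that scale. TPM keeps no record of read number, so the noise of read sampling could not be judged, also for scarce genes. The number of samples limits the precision as well. The test, with limma, took the 13164 genes that reached a TPM of 1 in 4 or more samples. The samples did not share one center. The median of the tested genes lay between -0.02 and 0.18 from the common center in the controls and at 0.12, 0.06, -0.23 and -0.37 in Siglec-XII samples 1 to 4. The median difference of the tested genes was -0.15, and 78.1% of them were below 0. Some marker transcripts of other tissue components also differed between the groups. The sum of 3 smooth muscle markers spanned 274 to 433 TPM in controls and 104 to 256 TPM in Siglec-XII samples. That of the neutrophil markers S100a8 and S100a9 spanned 23.2 to 130 TPM and 2.21 to 8.48 TPM. The sum of all 8 listed neutrophil genes overlapped (266 to 463 and 232 to 365 TPM). Epithelial markers overlapped (1666 to 2242 and 1739 to 2260 TPM for Epcam, Vil1 and Krt20). The part of these shifts in the results below was not tested. In bulk tissue, fewer cells of a type and less RNA per cell cannot be told apart.

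Rgs1 was 4.19, 1.97, 3.04 and 2.83 TPM in controls 1 to 4 and 0.546, 1.01, 1.14 and 1.03 TPM in Siglec-XII samples 1 to 4. Every Siglec-XII sample lay below every control, and the lowest control stood clear of the highest Siglec-XII sample. The group means were 3.01 ± 0.916 and 0.932 ± 0.263 TPM (SD, n = 4 each), a control mean 3.23 times the Siglec-XII mean. On the log2 scale the means were 1.97 ± 0.33 and 0.94 ± 0.21, a difference of -1.04 (SE 0.19, limma). Of all tested genes, 4.06% were separated in this direction, and nothing is read from that share for Rgs1, which was chosen by this contrast. The difference was between -1.17 and -0.90 with each sample left out in turn. It was -0.82 when each sample was centered on its median, and the groups then overlapped, the lowest control at 1.39 and the highest Siglec-XII sample at 1.40. After quantile normalization it was -0.85, and the groups stayed apart (lowest control 1.45, highest Siglec-XII sample 1.24). With TPM scaled to the sample median it was -0.88, again without overlap (1.44 and 1.24).

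Rgs1 lies on the minus strand of chr1:144242296-144249242 (GRCm38), in a row of RGS genes that are all transcribed in that direction. Its neighbors on one side are Rgs13 (chr1:144138654-144177372), known from germinal center B cells and tuft cells, and Rgs2 (chr1:143999338-144004161), a regulator acting mainly on Gq proteins. Rgs21 (chr1:144516648-144567667) and Rgs18 (chr1:144752683-144775435) lie on the other side. Rgs2 spanned 3.56 to 5.17 TPM in controls and 3.18 to 4.61 TPM in Siglec-XII samples, and Rgs13 spanned 0.637 to 1.51 TPM and 0.867 to 2.03 TPM. Both overlapped between the groups, with log2 differences of -0.03 and 0.27. No stretch of 31 bases of the annotated Rgs1 transcripts occurs in a transcript of another gene.

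**Figure D1:**
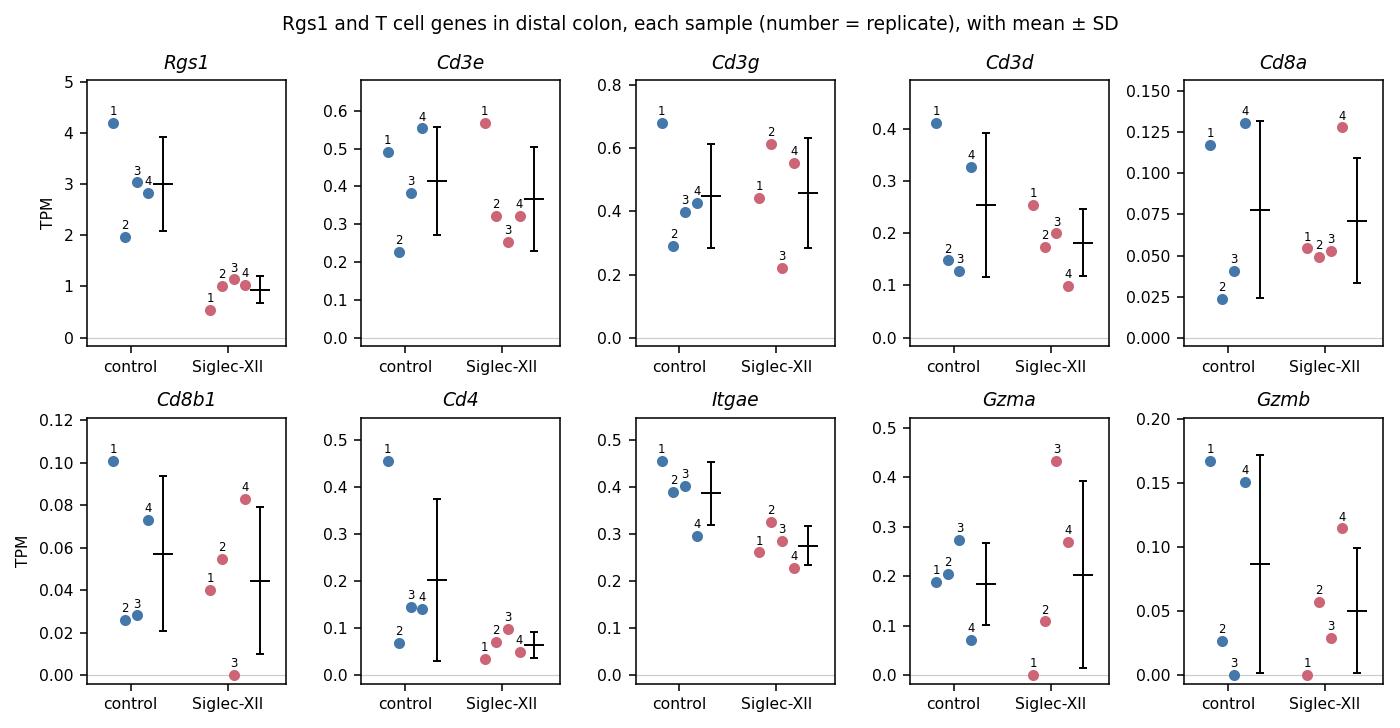
TPM of the 10 genes in each control (blue) and Siglec-XII (red) sample of distal colon, each panel on its own axis from 0, with the replicate number above each point and the mean ± SD (n = 4) beside each group. Rgs1 is separated between the groups (1.97 to 4.19 against 0.546 to 1.14 TPM), and the other 9 genes overlap.

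The 9 T cell genes were scarce. None reached 1 TPM in any sample, so none entered the test, and each is described by its values alone. Their median log2 difference was -0.05, with 7 of 9 below 0, beside a median of -0.02 and a share below 0 of 66.2% over the 10252 genes of similarly low level (under the filter and above 0 in at least 4 samples). Their groups overlapped for 9 of 9. Among the genes of low level, 3.87% had every Siglec-XII sample below every control.

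The CD3 chains lie together on chromosome 9. Cd3g (chr9:44969572-44980431, minus strand) and Cd3d (chr9:44981786-44987339, plus strand) stand head to head with their start sites 1355 bases apart, and Cd3e (chr9:44998740-45009627, minus strand) follows Cd3d and overlaps the antisense gene Gm48719. Their promoters are shown because these chains form the denominator against which Rgs1 is set below. Each runs from 250 bases before to 50 after the start (RefSeq, GRCm38.p6), at chr9:44980382-44980681 for Cd3g, chr9:44981536-44981835 for Cd3d and chr9:45009562-45009861 for Cd3e, 5′ to 3′ on the strand of the gene. Capitals mark the E-box letters CANNTG, bound by basic helix-loop-helix factors, and the letters AGGAAG or their complement CTTCCT, which ETS factors can bind.

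Cd3g: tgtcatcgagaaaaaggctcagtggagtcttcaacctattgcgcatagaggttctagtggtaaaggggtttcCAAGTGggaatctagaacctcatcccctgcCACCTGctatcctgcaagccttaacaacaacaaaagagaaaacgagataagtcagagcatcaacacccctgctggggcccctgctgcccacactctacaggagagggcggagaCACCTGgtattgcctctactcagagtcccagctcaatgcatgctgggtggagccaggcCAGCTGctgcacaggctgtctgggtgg

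Cd3d: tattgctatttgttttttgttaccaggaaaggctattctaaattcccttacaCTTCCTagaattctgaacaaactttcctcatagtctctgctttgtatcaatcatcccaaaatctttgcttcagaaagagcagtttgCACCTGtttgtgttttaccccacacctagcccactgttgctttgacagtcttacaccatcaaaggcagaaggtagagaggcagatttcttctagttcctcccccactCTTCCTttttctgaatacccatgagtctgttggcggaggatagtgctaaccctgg

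Cd3e: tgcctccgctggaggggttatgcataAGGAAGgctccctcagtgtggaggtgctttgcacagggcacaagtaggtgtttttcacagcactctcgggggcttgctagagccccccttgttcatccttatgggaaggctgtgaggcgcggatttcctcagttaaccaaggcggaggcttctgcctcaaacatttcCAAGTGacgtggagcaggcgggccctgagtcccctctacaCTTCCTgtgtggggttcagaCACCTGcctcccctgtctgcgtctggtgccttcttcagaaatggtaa

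Both strands were searched, and no marked letters overlapped another motif. The Cd3g window holds 4 E-box matches and no ETS match, the Cd3d window 1 and 2, and the Cd3e window 2 and 2. Of 32851 mouse promoter windows of that length, 72.3% hold the E-box letters and 35.4% the ETS letters, so these matches are a description only. The promoter table had windows for 6 of the 10 genes.

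Cd3e, the epsilon chain, was 0.492, 0.226, 0.384 and 0.553 TPM in controls 1 to 4 and 0.567, 0.322, 0.253 and 0.323 TPM in Siglec-XII samples 1 to 4. The highest value of all was in a Siglec-XII sample and the lowest in a control. Cd3g, the gamma chain, was 0.680, 0.290, 0.399 and 0.427 TPM in controls and 0.443, 0.614, 0.220 and 0.555 TPM in Siglec-XII samples, and its group means were nearly equal (0.449 ± 0.165 and 0.458 ± 0.174 TPM). Cd3d, the delta chain, was 0.411, 0.148, 0.128 and 0.328 TPM and then 0.254, 0.174, 0.200 and 0.0997 TPM, so controls 1 and 4 stood above all other samples while controls 2 and 3 lay among the Siglec-XII values. The log2 differences were -0.05 for Cd3e, 0.01 for Cd3g and -0.08 for Cd3d. Summed, the chains were 1.12 ± 0.409 TPM in controls and 1.01 ± 0.251 TPM in Siglec-XII samples.

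Cd8a and Cd8b1 encode the alpha and beta chains of CD8 and are neighbors on the plus strand of chromosome 6 (chr6:71373427-71379173 and chr6:71322788-71337494). Cd8a was 0.117, 0.0234, 0.0405 and 0.131 TPM in controls and 0.0543, 0.0492, 0.0529 and 0.128 TPM in Siglec-XII samples. Siglec-XII sample 4 was as high as controls 1 and 4, and the other Siglec-XII samples lay between the controls. Cd8b1 was 0.101, 0.0259, 0.0281 and 0.0731 TPM in controls and 0.0400, 0.0548, 0 and 0.0827 TPM in Siglec-XII samples, again with controls 1 and 4 and Siglec-XII sample 4 the highest. Of the 31-base windows of Cd8b1, 8.4% also occur in other genes, the largest share among the 10 genes. The log2 differences were -0.01 and -0.02.

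Cd4 (chr6:124864692-124888221, minus strand) was 0.456, 0.0685, 0.145 and 0.140 TPM in controls and 0.0345, 0.0704, 0.0984 and 0.0487 TPM in Siglec-XII samples. Controls 1, 3 and 4 lay above every Siglec-XII sample, and control 2 lay among them. The ratio of the means was as large as that of Rgs1 (3.21 times higher in controls), at a level over 10 times lower, and control 1 alone held the control mean at 0.202 ± 0.173 TPM. Leaving out control 2, the control that overlapped, separated the groups of Cd4 by construction. Of the genes of low level, 7.15% were then separated as lower. Itgae (chr11:73090583-73147446, plus strand) was 0.456, 0.389, 0.403 and 0.297 TPM in controls and 0.261, 0.326, 0.285 and 0.228 TPM in Siglec-XII samples, and control 4 was the one control below the highest Siglec-XII sample. Leaving out control 4 or Siglec-XII sample 2, the samples that overlapped, likewise separated its groups by construction. Of the genes of low level, 5.44% and 6.96% were then separated as lower. The log2 difference of Itgae was -0.12, and its ratio of means was 1.41. The gene Haspin is transcribed from the opposite strand within Itgae.

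Gzma (chr13:113093825-113100981, minus strand) encodes granzyme A and was 0.188, 0.204, 0.273 and 0.0718 TPM in controls. In Siglec-XII samples 1 to 4 it was listed at 0 and at 0.108, 0.434 and 0.269 TPM, so the lowest and the highest value of all samples were both in the Siglec-XII group. Gzmb (chr14:56258838-56262260, minus strand), which encodes granzyme B, was 0.167, 0.0269, 0 and 0.151 TPM in controls and 0, 0.0569, 0.0288 and 0.114 TPM in Siglec-XII samples. Each group held a sample listed at 0, and controls 1 and 4 and Siglec-XII sample 4 were over 0.1 TPM, and the log2 differences were 0.01 for Gzma and -0.05 for Gzmb.

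Set against the CD3 chains, Rgs1 remained lower in Siglec-XII samples. The ratio of Rgs1 to the summed chains, both in TPM, was 2.65, 2.96, 3.33 and 2.17 in controls and 0.432, 0.912, 1.69 and 1.06 in Siglec-XII samples (2.78 ± 0.495 and 1.02 ± 0.518), with no overlap. Siglec-XII sample 1 had the lowest Rgs1 and yet more CD3 transcript than controls 2 and 3. Against Ptprc, which encodes the leukocyte antigen CD45, the ratio spanned 3.03 to 4.93 in controls and 1.23 to 2.28 in Siglec-XII samples, also without overlap. Against the sum of 15 genes found in all leukocytes, however, it spanned 0.0640 to 0.133 and 0.0228 to 0.0656, and the groups overlapped. These ratios share the Rgs1 values and are no separate evidence of its difference.

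**Figure D2:**
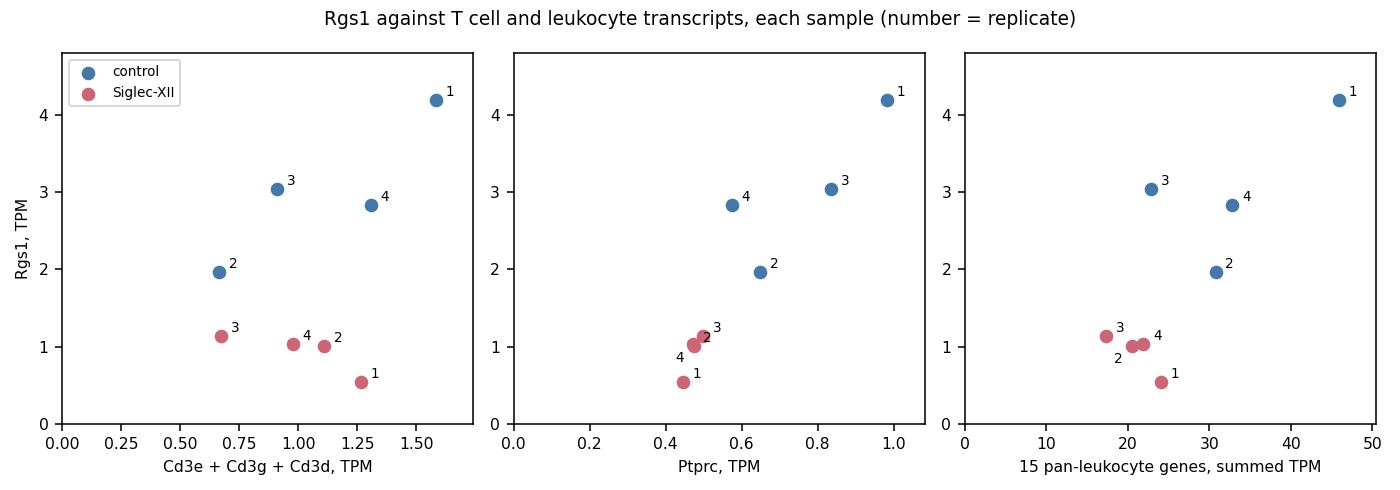
Rgs1 (TPM, vertical) against the summed CD3 chains, Ptprc and 15 summed pan-leukocyte genes (TPM, horizontal) in each control (blue) and Siglec-XII (red) sample, numbered by replicate. The CD3 sums of the groups overlap (0.664 to 1.58 and 0.674 to 1.26 TPM) while Rgs1 does not, and Ptprc is separated (0.574 to 0.983 and 0.446 to 0.499 TPM).

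Wider lists of T cell genes, also chosen with earlier results known, held further scarce transcripts. No gene of any list below passed an adjusted p of 0.05 (0.038% of all tested genes did, 5 of 13164), so the counts use an unadjusted P of 0.05, which 7.67% of the tested genes passed as lower and 1.19% as higher. Of 30 genes of the T cell receptor and its signaling, 6 were tested and 1 was lower, Bcl11b, a transcription factor of T cell commitment that is also made in other tissues (5.05 and 3.04 TPM, log2 difference -0.65, SE 0.27, unadjusted P = 0.040, adjusted p = 0.515, limma). Its level was far above that of any CD3 chain. P was above 0.05 without control 2, 3 or 4 or Siglec-XII sample 3 or 4 (-0.65 to -0.48), and the difference was -0.17 without both of these Siglec-XII samples. The list had a median difference of -0.06. Without a filter, where 5.35% of 31352 genes passed as lower, 3 of its 30 genes did, among them Trdc and Lat, named after their values were seen. In 3 of the 30 genes, Trdc and Lat included, every Siglec-XII sample lay below every control. Over all genes this held for 4.06% of those tested and 3.87% of those under the filter. These shares also stand beside the counts of separated genes in the lists below.

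Trdc, the constant region of the delta chain of the gamma-delta T cell receptor, spanned 0.206 to 0.292 TPM in controls and 0.0406 to 0.114 TPM in Siglec-XII samples. Lat, the adaptor that links the receptor to downstream signaling, spanned 0.167 to 0.523 and 0.0686 to 0.149 TPM. The adjusted p without a filter was 0.483 for Trdc and 0.682 for Lat. By contrast Trac, the constant region of the alpha chain, spanned 0.10 to 0.50 and 0.255 to 0.538 TPM, and Lck, the kinase that phosphorylates CD3, spanned 1.58 to 2.56 and 1.69 to 1.94 TPM. Both overlapped, with log2 differences of 0.05 and -0.10. Trac, Lck and the genes of the next sentences without a P were likewise named after their values were seen.

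Of 29 CD8 T cell and IEL genes, 7 were tested and 1 was lower, Ikzf2, which encodes the transcription factor Helios (2.40 and 1.40 TPM, log2 difference -0.51, SE 0.17, unadjusted P = 0.014, adjusted p = 0.515, but -0.29 and not past P without Siglec-XII samples 3 and 4). Ikzf2 and Cxcr6, a chemokine receptor of resident T cells (0.217 to 0.484 and 0.0828 to 0.184 TPM), were the 2 of 29 separated between the groups. Of 15 genes of cytotoxic granules, 4 were tested and 1 was lower, Srgn, the granule proteoglycan serglycin, which mast cells and myeloid cells also make (7.24 and 1.70 TPM, log2 difference -1.23, SE 0.53, unadjusted P = 0.043, adjusted p = 0.515). Control 2 (17.3 TPM) stood far above the other samples and control 3 overlapped the Siglec-XII group. The difference was -0.72 without control 2 and between -1.21 and -1.12 without control 4 or Siglec-XII sample 1, 2 or 4, and in each of these fits P was above 0.05. The other 3 tested genes did not pass, and 11 were under the filter. Ccl5, a chemokine of cytotoxic T cells, had a difference of 0.34. None of the 5 tested genes of helper and regulatory T cells (of 20 measured) or of the 3 tested genes of naive and recirculating T cells (of 9) passed in either direction, nor did any of the 5 tested genes of natural killer and innate lymphoid cells (of 15). The medians of these 3 lists were -0.04, -0.11 and -0.03.

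Rgs1 itself belongs to the genes of activation and tissue residency. Of 24 such genes, 16 were tested. Beside Rgs1, which was chosen by this contrast, Cd44 and Dusp5 were lower and Fos was higher. Cd44, the hyaluronan receptor, which epithelial and stromal cells also make, was 9.52 and 4.65 TPM (log2 difference -0.86, SE 0.33, unadjusted P = 0.027). Fos, an immediate early gene of many cell types, was 63.6 and 110 TPM (0.75, SE 0.33, unadjusted P = 0.047), and the adjusted p of both was 0.515. Cd44 lost its P without control 1 or 4 or Siglec-XII sample 3 or 4 (-0.76 to -0.65), and Fos lost it without control 1, 2 or 3 or Siglec-XII sample 1, 2 or 3 (0.50 to 0.82). Beside Rgs1, 4 of the other 23 genes were separated between the groups, all lower in Siglec-XII samples: Nr4a2, Pdcd1, Lag3 and Tigit. Over all genes, 4.06% of those tested and 3.87% of those under the filter were separated as lower. Nr4a2 is a nuclear receptor induced by receptor signaling, and the other 3 encode inhibitory receptors of activated T cells. Nr4a2 spanned 0.501 to 0.746 and 0.234 to 0.475 TPM, Pdcd1 0.0819 to 0.214 and 0.0202 to 0.0609 TPM, Lag3 0.182 to 0.549 and 0.0389 to 0.176 TPM, and Tigit 0.189 to 0.536 and 0.0316 to 0.184 TPM. The counts over the 24 genes, Rgs1 included, changed with scaling. With each sample centered on its median, which shifts values near 0 by construction, 0 were separated as lower and 3 as higher. After quantile normalization 2 were lower and 1 higher. With TPM divided by the sample median before the log was taken, 4 were lower and 3 higher. Of the 13164 tested genes, these 3 scalings separated 156, 200 and 204 as lower and 756, 483 and 766 as higher. Of the 10252 genes of low level, the same scalings separated 3, 130 and 200 as lower and 276, 228 and 158 as higher. Cd69, the classical residency marker, overlapped (0.109 to 0.192 and 0.0383 to 0.219 TPM).

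**Figure D3:**
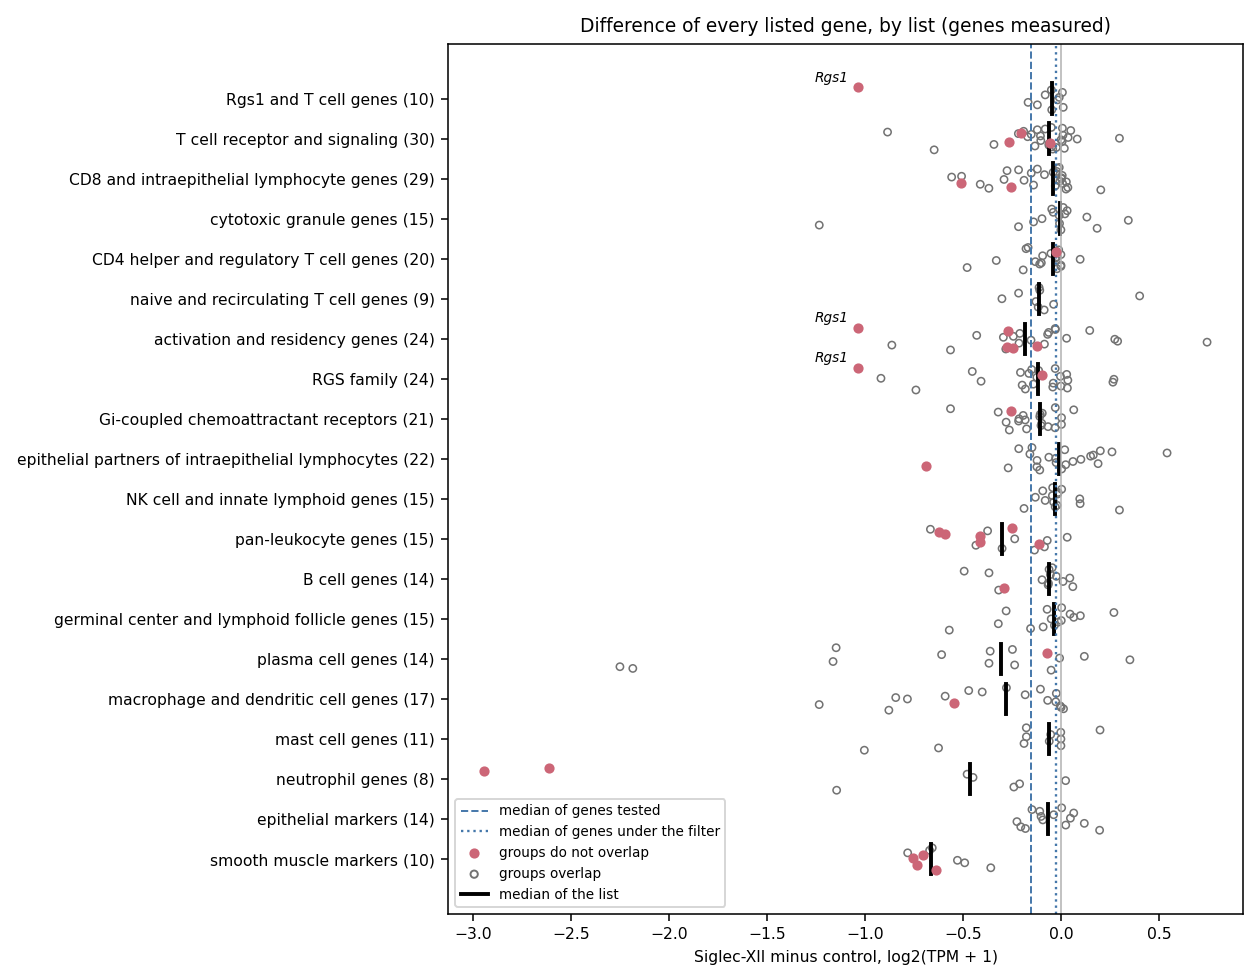
Difference of every gene (Siglec-XII minus control, log2(TPM + 1), horizontal) in each list, with the number of genes measured in parentheses. Filled points are genes whose groups do not overlap, black bars are list medians, and the dashed and dotted lines are the medians of the tested genes (-0.15) and of the genes under the filter (-0.02). On this scale, where differences of genes below 1 TPM are compressed toward 0, the T cell lists lie near these lines. With a pseudocount of 0.1 their medians spanned -0.46 to -0.08, beside -0.17 and -0.13 for the lines. Pan-leukocyte, plasma cell, macrophage, neutrophil and smooth muscle medians lie further below 0, and Rgs1 lies below all other genes of its lists.

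Of 15 genes found in all leukocytes, 7 were tested and 4 passed as lower at unadjusted P, namely Coro1a, Laptm5, Lcp1 and Vav1. Differences were below 0 for 14 of 15, with a median of -0.30, beside 78.1% and -0.15 for all tested genes. The 8 genes of the list under the filter had a median of -0.19. Over all genes of that low level, 66.2% were below 0 and the median was -0.02. Coro1a, an actin regulator of leukocytes, had log2 means of 1.93 and 1.30 (difference -0.62, SE 0.24, unadjusted P = 0.030). Laptm5, a lysosomal protein of hematopoietic cells, was 2.30 and 1.16 TPM (-0.59, SE 0.18, unadjusted P = 0.0085), and the adjusted p of both was 0.515. Coro1a lost its P without control 4 or Siglec-XII sample 1 or 3 (-0.62 to -0.56), and its difference was -0.38 without control 1. Laptm5 kept its P with each sample left out, and lost it without both Siglec-XII samples 3 and 4 (-0.50). Ptprc was under the filter, at 0.983, 0.649, 0.836 and 0.574 TPM in controls and 0.446, 0.474, 0.499 and 0.472 TPM in Siglec-XII samples, and every control lay above every Siglec-XII sample. Separation of the groups was seen in 6 of the 15 genes as deposited, in 1 after median centering, and in 2 after quantile normalization or after scaling of TPM. Of the 13164 tested genes, 156, 200 and 204 were separated as lower under these scalings. Of the 10252 genes of low level, 3, 130 and 200 were, and median centering shifts values near 0 by construction. Without Siglec-XII samples 3 and 4, whose medians were the lowest, separation was seen in 7 of the 15. The share over all genes also rose then, from 4.06% to 6.23% of those tested and from 3.87% to 8.70% of those under the filter.

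Rgs1 was also set beside its own family. Of 24 genes with an RGS domain, 9 were tested, and Rgs12 and Axin2 were lower beside Rgs1. Rgs12, a large regulator with several signaling domains, was 7.39 and 3.15 TPM (log2 difference -0.92, SE 0.38, unadjusted P = 0.040). Axin2, a feedback inhibitor and target of Wnt signaling in crypt cells, was 14.5 and 8.90 TPM (-0.74, SE 0.28, unadjusted P = 0.027), and the adjusted p of both was 0.515. Both overlapped between the groups. Rgs12 lost its P without control 1 or 4 or Siglec-XII sample 3 or 4 (-0.81 to -0.62), and Axin2 without control 2 or Siglec-XII sample 3 or 4 (-0.66 to -0.50). Without both of these Siglec-XII samples the differences were -0.52 and -0.25. The other most abundant members, Rgs3 (30.8 and 27.7 TPM) and Axin1 (24.6 and 22.1 TPM), had differences of -0.15 and -0.18, at unadjusted P of 0.533 and 0.359. Rgs16, a regulator also induced in activated lymphocytes, had a difference of -0.41 (unadjusted P = 0.066). Beside Rgs1, 1 of the other 23 genes was separated between the groups, Rgs9, which was below 0.2 TPM in all samples. Of the genes under the filter, 3.87% were separated as lower.

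**Figure D4:**
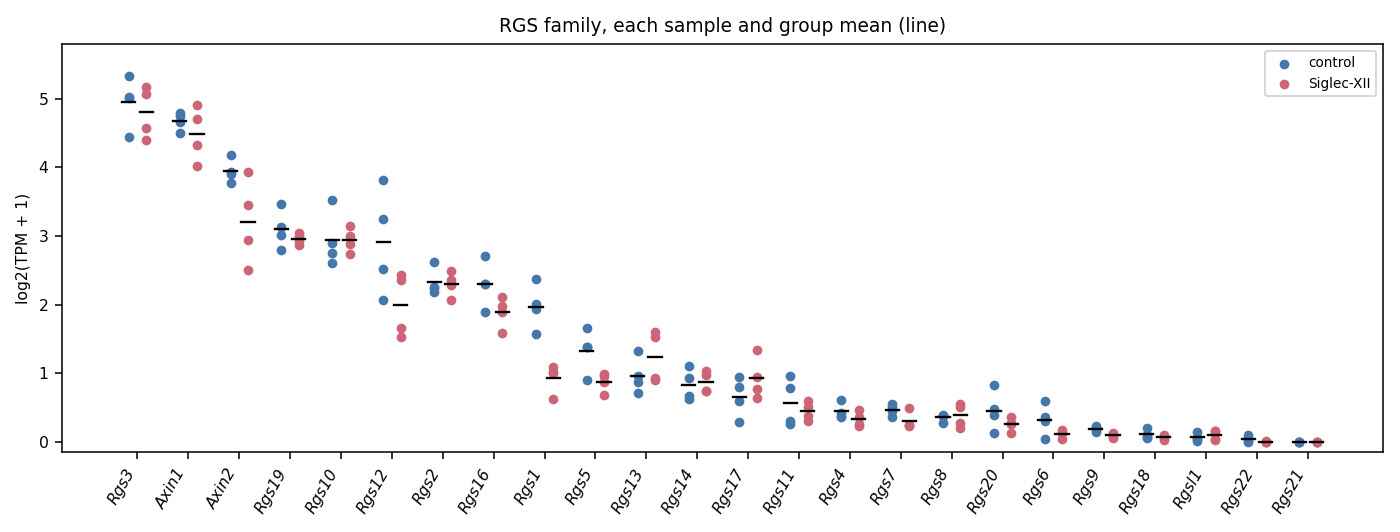
log2(TPM + 1) of the 24 measured genes with an RGS domain in each control (blue) and Siglec-XII (red) sample, ordered by mean, with group means as lines. Rgs1 is the most abundant gene of the family whose groups do not overlap, with means of 1.97 and 0.94.

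The receptors whose signal RGS proteins damp were scarce as well. Of 21 Gi-coupled chemoattractant receptors and their G proteins, 2 were tested and neither passed. The median difference was -0.11, and 1 of 21, Cxcr6, was separated. Differences were below 0 for 18 of 21, beside 78.1% of tested genes and 66.2% of genes of low level. The 19 genes under the filter had a median of -0.11, beside -0.02 for all genes of low level. Without a filter, 5 of the 21 passed as lower at unadjusted P, beside 5.35% of 31352 genes. Of 22 genes listed as partners of IELs in the epithelium, 18 were tested, and 1 was lower. It was Tgfb1, the cytokine that induces Itgae (7.58 and 4.44 TPM, log2 difference -0.69, SE 0.19, unadjusted P = 0.0060, adjusted p = 0.515, limma, and -0.42 without Siglec-XII samples 3 and 4). Which cells of the bulk tissue made these transcripts was not measured. Il15, the cytokine that sustains IELs, was 25.4 and 38.5 TPM (0.54, unadjusted P = 0.066), and Cdh1, which encodes E-cadherin, was 376 and 345 TPM (-0.15, unadjusted P = 0.555). The list had a median of -0.01, with 11 differences on each side of 0.

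Finally, the variation between samples of the same group was compared, after the mean of each group was subtracted from log2(TPM + 1). These correlations are over 8 samples that share libraries and shifts of center, and are given without a test. Among the 9 T cell genes, Cd4 was closest to Rgs1 (Pearson r = 0.844, Spearman rho = 0.905, and r = 0.917 without control 1 and Siglec-XII sample 1, the samples farthest from the center). Gzmb (0.596) and Cd8a (0.523) followed, and Cd3e was lowest at 0.083. Without those samples Gzmb was at 0.10 and Cd8a at 0.35, while Cd3e was at 0.70, so apart from Cd4 the order rests on them. The median of the 9 was 0.446, against -0.463 for tested genes and -0.060 for genes under the filter. The T cell genes varied with each other to a like degree (median r = 0.439 over 36 pairs, 26 of them above 0), most for Cd8a with Gzmb (0.915) and Cd3g with Cd8b1 (0.894). Cd3e and Cd3d had r = 0.684, Cd3g and Cd3d 0.355, and Gzma varied against Cd3e (-0.717).

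Of the tested genes, Zfp383 (r = 0.941), Isy1 (0.924), Egfl7 (0.909), 2410022M11Rik (0.907) and Rhebl1 (0.906) varied most like Rgs1. None of them is on the lymphocyte lists. Their log2 differences between the groups were -0.14, -0.11, -0.41, 0.17 and 0.38 in that order, and Rhebl1 was separated as higher in Siglec-XII samples. Listed genes close to Rgs1 included Jchain (0.795), the joining chain of secreted IgA, Igha (0.741), its heavy chain, Coro1a (0.652) and the lymphoid chemokine Ccl21a (0.642). Spearman rho was 0.52, 0.48, 0.55 and 0.26 for these genes. Without control 1 and Siglec-XII sample 1, r was 0.69, 0.87, 0.14 and 0.94.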

How the data were processed

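The authors deposited log2(TPM + 1) for 52143 gene rows and 8 samples, which the submitters' processing notes credit to kallisto 0.45.0 and GRCm38. The Methods give an earlier version, a human build and 3 technical libraries per sample. TPM summed to 1000000 in each sample. Where a symbol had several rows (718 further rows), that with the highest mean stood for it. The members and gene lists were chosen with earlier results of these data known. Groups were compared with limma 3.58.1 in R 4.3.3 (moderated variance with a trend, Benjamini-Hochberg adjustment) over all 13164 genes passing the filter, after the fit was tested on simulated data. Named genes were the 10 members, up to 2 genes per direction and list past unadjusted P of 0.05, the 3 next most abundant RGS genes, the 5 tested and 5 listed lymphocyte genes closest to Rgs1, and Ptprc, Epcam and Myh11. Others were named after their values were seen. Some genes chosen by this rule are not reported here. Alternatives were a TPM filter of 5, no filter, quantile normalization, a pseudocount of 0.1, median centering, array weights, the replicate number as a block and each sample left out, and, added later, TPM scaled to the sample median and Siglec-XII samples 3 and 4 left out. Same-numbered samples did not vary together (correlations of -0.165, -0.204, 0.103 and -0.0025), so the numbers were not used as pairs. No 2 samples repeated each other (highest correlation 0.987). Positions are GENCODE M21 on GRCm38, to which 98.3% of identifiers belong.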

Additional observations from a re-analysis of the deposited data

Results flagged for a closer look

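In 80 groups of 4 samples (40 named genes in both groups), 2 held a sample whose gap to the nearest other sample, divided by the range of the group, exceeded the 95% critical value of Dixon's test, where chance gives about 4. Cd8a in Siglec-XII sample 4 (gap 0.934 of the range) was 0.17, and the other Siglec-XII samples were 0.07 to 0.08 on the log2(TPM + 1) scale. Igha in Siglec-XII sample 3 (gap 0.954) was 0.49, and the other Siglec-XII samples were 1.18 to 1.21.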

How the results depend on the processing

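Rgs1 was lower in Siglec-XII samples under all alternatives run for it, from -1.17 to -0.90 with each sample left out, and at -1.59 with a pseudocount of 0.1. The median of the 9 T cell genes (-0.05) moved to -0.13 with that pseudocount and to 0.17 with median centering, which shifts values near 0 by construction, and spanned -0.07 to -0.01 with each sample left out. The 1 lower gene of the T cell receptor list became 3 without a filter and 0 with array weights, a TPM filter of 5 (where 0 of the list were tested), quantile normalization or without Siglec-XII samples 3 and 4, and 0 to 2 with each sample left out. With the replicate number as a block, it was 0, and the counts over all genes were 4, 815 and 130 where the fit without a block gave 5, 1010 and 157 (adjusted, lower and higher). The 5 genes past adjusted p and fold-change became 12 with array weights, 3 at a TPM filter of 5 or none, 2 without Siglec-XII samples 3 and 4, and 2 to 6 with each sample left out. The 1010 lower genes became 579 at a TPM filter of 5, 1677 without a filter, 285 with median centering, 402 with quantile normalization, 374 with scaled TPM, 207 without Siglec-XII samples 3 and 4, and 386 to 2183 with each sample left out. The 157 higher genes became 432 with array weights, 366 without a filter, 1137 with median centering, 714 with quantile normalization, 1136 with scaled TPM, and 97 to 182 with each sample left out. Without a filter, 5.35% of genes passed as lower at unadjusted P, and no listed gene passed an adjusted p of 0.05. Lower then were 8 of 24 activation and 4 of 23 RGS genes, each count with Rgs1, and 7 of 15 pan-leukocyte genes. The counts were 6 of 17 for macrophage, 3 of 14 for plasma cell and 2 of 8 for neutrophil genes. They were 3 of 29 for CD8 and IEL, 0 of 14 for granule and 0 of 15 for natural killer genes. Helper and naive T cell lists had 1 of 18 and 1 of 9. The cause of these changes was not tested. Scaling moved the median of all tested genes from -0.15 to 0.06 (median centering), 0.02 (quantile) and 0.05 (scaled TPM). A pseudocount of 0.1 moved it to -0.17, and that of genes under the filter to -0.13. The T cell lists then had medians of -0.27 (receptor), -0.24 (CD8 and IEL), -0.08 (granules), -0.18 (helper and regulatory) and -0.46 (naive). Pan-leukocyte genes were then at -0.56. Of the values for named genes, 391 kept their direction and side of the threshold, 87 lost the threshold and 2 gained it. Srgn, Cd44, Rgs12, Coro1a, C1qb and C1qc lost their P with median centering, with quantile normalization and with scaled TPM. Laptm5 and Ikzf2 lost it with median centering, Bcl11b with quantile normalization and Cnn1 with scaled TPM.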

Other observations

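Some plasma cell, macrophage and neutrophil genes passed an unadjusted P of 0.05 as lower in Siglec-XII samples, and none passed an adjusted p of 0.05. Of 14 plasma cell genes, 6 were tested and 2 were lower at unadjusted P: Igkc, the kappa light chain (31.4 and 3.33 TPM, log2 difference -2.25, SE 0.85, unadjusted P = 0.027), and Igha, the heavy chain of IgA (13.1 and 1.07 TPM, -2.19, SE 0.75, unadjusted P = 0.017). Both overlapped between the groups, and control 1 was the highest sample (73.9 TPM for Igkc and 29.7 TPM for Igha). Igkc lost its P without control 1 (-1.60), control 4 (-1.98) or Siglec-XII sample 3 (-1.95), and Igha kept it with each sample left out. Of 17 macrophage and dendritic cell genes, 7 were tested and 2 were lower, the complement genes C1qb (-0.84, SE 0.33, unadjusted P = 0.030) and C1qc (-0.78, SE 0.24, unadjusted P = 0.0091), both overlapping. C1qb was -0.55 and not past P without control 1, and lost its P also without control 4 or Siglec-XII sample 1, 2 or 4. Both complement genes lost their P with median centering, quantile normalization and scaled TPM. Of 8 neutrophil genes, 3 were tested and 2 were lower, S100a9 (-2.94, SE 0.59, unadjusted P = 0.00079) and S100a8 (-2.61, SE 0.46, unadjusted P = 0.00030), subunits of calprotectin that inflamed epithelium can also make. Both were separated between the groups. The adjusted p was 0.515 for each of these genes except S100a8, where it was 0.333.

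Of 14 B cell genes, none passed the filter, and 0 of 4 tested germinal center and follicle genes and 0 of 2 tested mast cell genes passed. Of 14 epithelial markers, 0 passed (median difference -0.06), and Epcam was 1472 and 1473 TPM. Of 10 smooth muscle markers, 5 were lower, among them Myh11 (-0.78, SE 0.28, unadjusted P = 0.021, adjusted p = 0.515) and Cnn1 (-0.75, SE 0.26, unadjusted P = 0.018, adjusted p = 0.515). Without Siglec-XII sample 4 they were -0.51 and -0.49, and both lost their P without control 3 (-0.69 and -0.63).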
